A study of Mus musculus with 7 samples.

Results

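The 9 protein arginine methyltransferase genes were followed through the chromatin data of mouse muscle stem cells (MuSCs). They were taken by name, with no measured value in the rule, from the 21938 protein-coding genes of the GENCODE M21 annotation on the mm10 genome. For each gene, MACS peaks were read over the gene body and within 3 kb of the annotated start in 7 libraries. The 4 ATAC-seq libraries, which mark DNA open to the Tn5 transposase, came from uninjured hind limb MuSCs, 2 labelled Control and 2 labelled TRF2KO, both at 0 hours. The 3 CUT&Tag libraries came from tibialis anterior MuSCs labelled wild-type and 3 days after notexin, a snake toxin that kills myofibres. An antibody to TRF2, the telomere-binding shelterin protein encoded by Terf2, was used in 2 of them and rabbit IgG in 1. For CUT&Tag the methods of the study give a different interval after injury, a second muscle and control mice with a Pax7 Cre allele and a floxed tdTomato reporter, so the stage and genotype of those cells are uncertain. TRF2KO mice carried floxed Terf2 and the tamoxifen-inducible Pax7-CreERT2 driver, so deletion was directed to Pax7-expressing cells. The genotype field of all 7 libraries reads Wildtype and the ATAC groups were taken from the sample titles. Age, and whether Control mice carried the driver or received tamoxifen, is not given for these libraries in the sources used here. Nor is it stated how many animals went into each library, so the spread between libraries of a group may be technical.

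Protein arginine methyltransferases transfer methyl groups from S-adenosylmethionine to arginine side chains of histones, RNA-binding proteins and transcription factors. Type I enzymes (Prmt1, Prmt2, Prmt3, Carm1, Prmt6 and Prmt8) leave asymmetric dimethylarginine. Type II enzymes (Prmt5 and Prmt9) leave symmetric dimethylarginine, and the type III enzyme Prmt7 leaves monomethylarginine. In MuSCs, Carm1 is known to methylate Pax7, Prmt5 to be needed for stem cell expansion during regeneration, and Prmt1 and Prmt7 to influence self-renewal and differentiation. ATAC and CUT&Tag describe chromatin at these genes and not the amount of transcript or enzyme.

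The sequences below show the DNA under the findings, with the GC box (GGGCGG) and the CCAAT box (CCAAT) in capitals on either strand. Both are short motifs common in housekeeping promoters, and no copies of one overlapped a copy of the other in these stretches. The first 3 are stretches of at most 300 bases covered by the TRF2 peaks of both TRF2 libraries at the genes with the highest ATAC peaks, read from GRCm38 (mm10) and written on the strand of the gene. The last pair are the RefSeq promoter windows (GRCm38.p6, 250 bases before to 50 after the start) of the members without a TRF2 peak. For Prmt8 it is the one of 2 windows nearer the GENCODE start.
Prmt1, chr7:44986420-44986719, minus strand: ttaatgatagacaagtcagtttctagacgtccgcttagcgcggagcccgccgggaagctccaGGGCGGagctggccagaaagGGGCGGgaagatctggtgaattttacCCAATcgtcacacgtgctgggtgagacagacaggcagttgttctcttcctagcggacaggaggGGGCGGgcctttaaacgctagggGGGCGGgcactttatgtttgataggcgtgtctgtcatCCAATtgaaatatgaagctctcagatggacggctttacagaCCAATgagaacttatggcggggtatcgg
Carm1, chr9:21546418-21546717, plus strand: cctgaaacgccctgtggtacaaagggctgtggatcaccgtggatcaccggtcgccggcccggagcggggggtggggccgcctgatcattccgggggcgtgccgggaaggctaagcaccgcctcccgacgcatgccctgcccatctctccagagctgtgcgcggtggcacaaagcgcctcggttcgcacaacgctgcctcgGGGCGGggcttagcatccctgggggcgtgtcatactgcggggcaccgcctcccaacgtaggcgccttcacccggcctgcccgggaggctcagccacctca
Prmt5, chr14:54517423-54517691, minus strand: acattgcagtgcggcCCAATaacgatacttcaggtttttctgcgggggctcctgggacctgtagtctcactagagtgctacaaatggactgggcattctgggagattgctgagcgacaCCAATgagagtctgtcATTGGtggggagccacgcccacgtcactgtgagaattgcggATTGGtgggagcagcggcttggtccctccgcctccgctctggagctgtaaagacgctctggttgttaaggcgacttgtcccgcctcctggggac
Prmt6, chr3:110250950-110251249, minus strand: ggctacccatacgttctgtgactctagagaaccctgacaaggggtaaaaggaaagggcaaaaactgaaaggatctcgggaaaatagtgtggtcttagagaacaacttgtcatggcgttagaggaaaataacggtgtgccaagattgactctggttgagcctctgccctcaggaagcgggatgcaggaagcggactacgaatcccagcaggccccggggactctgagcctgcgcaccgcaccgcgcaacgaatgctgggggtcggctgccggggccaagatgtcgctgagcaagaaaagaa
Prmt8, chr6:127769110-127769409, minus strand: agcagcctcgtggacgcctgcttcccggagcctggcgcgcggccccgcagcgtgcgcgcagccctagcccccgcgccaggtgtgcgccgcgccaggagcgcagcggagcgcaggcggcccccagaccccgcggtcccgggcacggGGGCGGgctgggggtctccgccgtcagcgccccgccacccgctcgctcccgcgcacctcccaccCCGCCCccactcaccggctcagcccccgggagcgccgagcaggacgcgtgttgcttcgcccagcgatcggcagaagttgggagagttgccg

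The Prmt1 stretch held 4 GC boxes and 3 CCAAT boxes. Its RefSeq promoter window held the same numbers, where 5.49% of 32851 promoter windows of equal length held at least 4 GC boxes and 3.37% at least 3 CCAAT boxes. The Prmt5 stretch held no GC box and 4 CCAAT boxes, a number reached in 1.06% of windows. Carm1 had 1 GC box at the TRF2 peak and no CCAAT box. Neither box was present in the Prmt6 window, as in 39.7% of all windows. The Prmt8 window held 2 GC boxes and no CCAAT box, and with 78.7% G + C and 43 CpG dinucleotides it was the most CpG-dense of the 8 members listed in the promoter table. Of all windows, 97.8% had no more CpGs than this. Carm1 was not in that table.

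Every library was first read for its peak number and for the targeted gene. MACS listed 89160 and 100521 peaks in Control 1 and Control 2, 84776 and 84102 in the TRF2KO libraries, 12290 and 15479 in the TRF2 libraries and 656 with IgG. Read totals are not given in the sources used here. The Terf2 start peak had folds of 54.3 and 48.4 in Control and 21.5 and 18.6 in TRF2KO, a log2 difference of −1.46 (SE 0.108; limma adjusted p = 2.39e-06). Of 8 MuSC marker genes, 8 had a start peak in all 4 ATAC libraries, with median ranks between 88.8 and 90.8. For other cells in muscle, the numbers were 3 of 4 endothelial, 1 of 4 immune, 2 of 5 fibro-adipogenic and tendon, 2 of 3 glial, 2 of 3 mural and 2 of 3 myofibre markers. Over the 4 libraries, the median ranks of the listed genes with a peak lay between 35.8 and 48.2 for the endothelial list, 44.8 and 88.4 for the fibro-adipogenic and tendon list, 69.6 and 82.7 for the glial, 67.0 and 79.5 for the mural and 64.0 and 72.3 for the myofibre list. Of the immune list, Ptprc, Itgam and Csf1r had no peak in any ATAC library, and Cd68 had folds of 75.2 to 93.4. Pdgfra, a fibro-adipogenic marker, had a fold of 48.9 in TRF2KO 1 and of 10.4 to 15.4 in the other libraries (log2 difference 0.89, SE 0.366, limma adjusted p = 0.244). Scx, of the same list, had folds of 70.0 and 52.0 in Control and 57.4 and 49.7 in TRF2KO. Its log2 difference was −0.27 (SE 0.0956, limma adjusted p = 0.168). Ly6a had peaks in the TRF2KO libraries alone (folds 3.66 and 2.95), Dcn in Control 1 and TRF2KO 2, and Tnmd in none. The mural marker Rgs5 also had peaks in TRF2KO alone (folds 6.18 and 3.40). No listed marker had peaks in both Control libraries and in neither TRF2KO library. Among these lists Itga7 (MuSC) and Acta1 (myofibre) were called lower in TRF2KO, and their part in the values below was not tested.

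All 9 members had an ATAC peak within 3 kb of the start in all 4 libraries, as did 64.4% of coding genes. The height of a peak is given as the MACS fold, the number of fragments piled up at the summit over the background of the library, each plus 1. Because libraries differ in depth, the rank of a peak in its own list is given beside it, as the percentage of peaks with a lower fold. In bulk cells, a lower peak in every cell and a peak lost from some cells cannot be told apart. By rank in Control the members ran from Prmt1, Prmt5 and Carm1 above 99 through Prmt7, Prmt9, Prmt3, Prmt6 and Prmt2 to Prmt8, whose Control ranks were 53.5 and 46.5. The ranks of Prmt1 and Prmt5 overlapped across the 4 libraries, as did those of Prmt5 and Carm1, and every later neighbour was separated from the one before it. Within 500 bp of the start, 8 of 9 members kept a peak in all 4 libraries, against 58.8% of coding genes, and the exception was Prmt8.

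**Figure D1:**
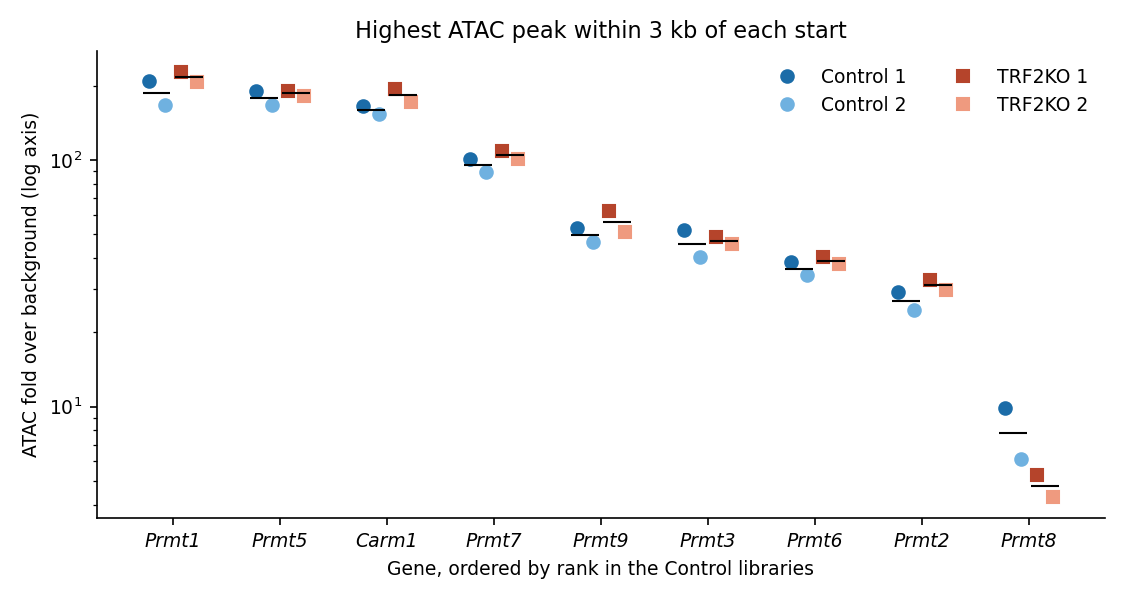
ATAC fold of the highest peak within 3 kb of each start, on a log axis, for each of the 4 libraries. Circles are Control, squares are TRF2KO, bars are the mean of the log2 folds in each group (n = 2), and the fold runs from 227 at Prmt1 in TRF2KO 1 to 4.31 at Prmt8 in TRF2KO 2.

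**Figure D2:**
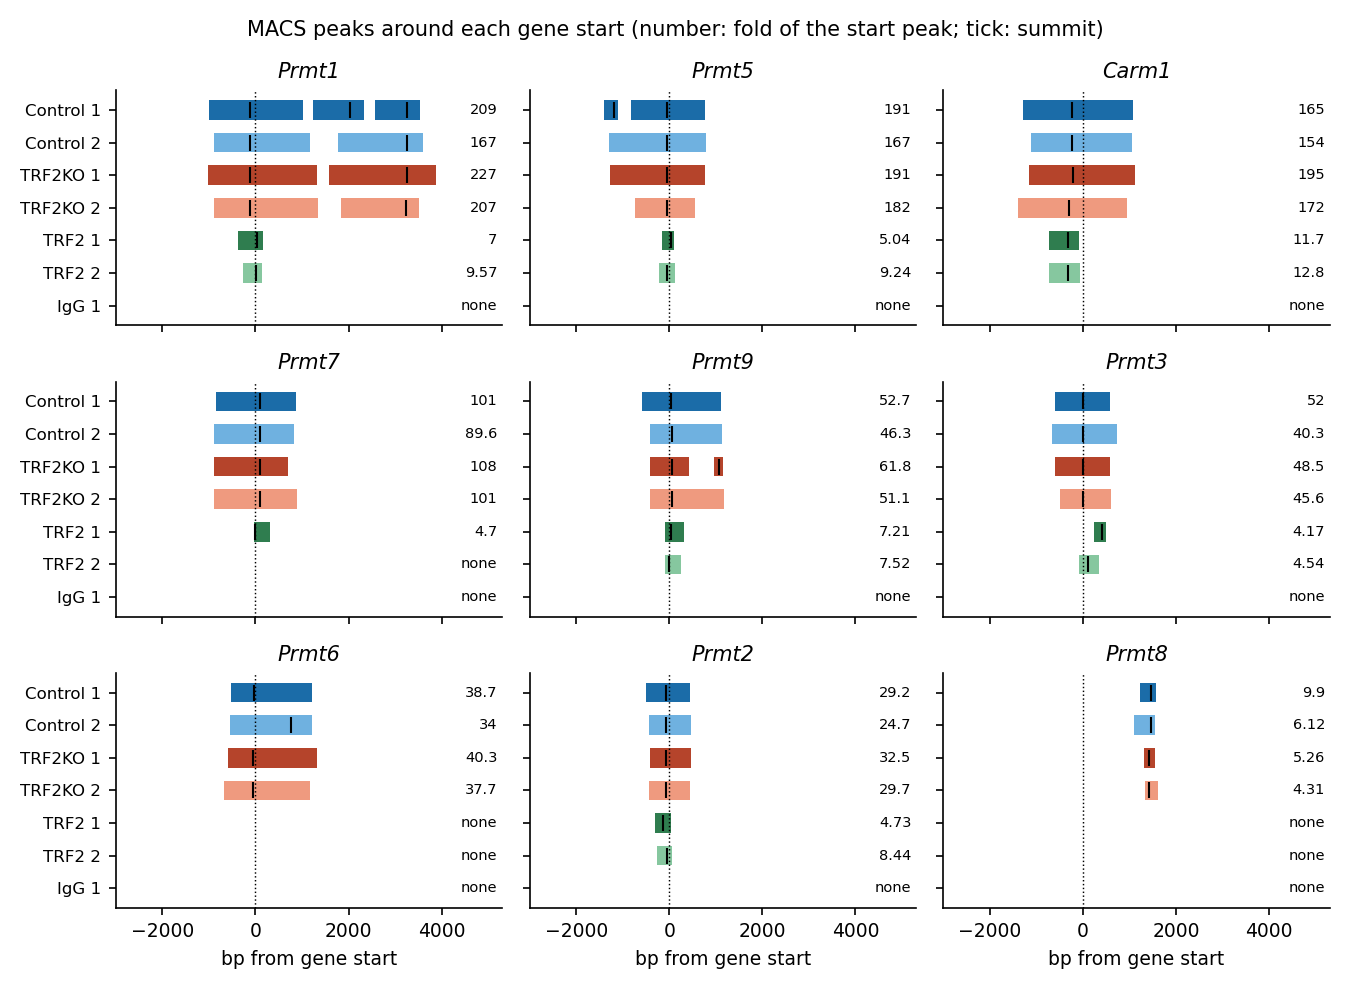
MACS peaks from 3 kb before to 4 kb after each gene start, in bp along the direction of transcription, with 1 row per library. Bars are peaks, ticks are summits and the number at the right is the fold of the highest start peak, with TRF2 peaks absent at Prmt6 and Prmt8 and no IgG peak at any member.

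Prmt1, the enzyme responsible for most asymmetric dimethylation in cells, lies on the minus strand at chr7:44975989-44986568. Its start peak had folds of 209 and 167 in Control and 227 and 207 in TRF2KO, with ranks from 99.88 to 99.94. At the summit, 909, 926, 992 and 909 fragments were piled up, and the 95% Poisson interval of 909 runs from 850.9 to 970.1 for counting error alone. The start peaks spanned 2030 to 2349 bp, with summits at −125 or −126 bp. A second peak lay inside the gene at about 3.2 kb, over an internal transcript start at 3017 bp, with folds of 32.4 and 28.1 in Control and 33.4 and 29.7 in TRF2KO. The noncoding gene Gm15545 starts within the region, from −1018 to 3880 bp, that these peaks form when merged over the 4 libraries. ATAC reads there cannot be assigned to either gene.

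Carm1, a coactivator that methylates histone H3, lies on the plus strand at chr9:21546894-21592623. Folds at the start were 165 and 154 in Control and 195 and 172 in TRF2KO, with ranks from 99.54 to 99.76. The gene carried the most ATAC regions of the 9, at 7, of which 2 were in all 4 libraries. The second of these sat at the 3′ end of the gene, over the starts of Yipf2 and Timm29, with folds of 52.2, 40.1, 49.6 and 43.1 in Control 1, Control 2, TRF2KO 1 and TRF2KO 2. The remaining 5 had folds from 2.88 to 4.14.

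Prmt2, a weak methyltransferase and nuclear receptor coactivator, lies on the minus strand at chr10:76207222-76237865. Start folds of 29.2 and 24.7 were measured in Control and of 32.5 and 29.7 in TRF2KO, the lowest of any member but Prmt8. Prmt3, a cytosolic enzyme known for methylating a ribosomal protein, lies on the plus strand at chr7:49778346-49858265. It had folds of 52.0 and 40.3 in Control and 48.5 and 45.6 in TRF2KO, so that the TRF2KO values fell between the Control values. Prmt6, a nuclear enzyme that methylates histone H3, lies on the minus strand at chr3:110246109-110250998. Its folds of 38.7 and 34.0 in Control overlapped those of 40.3 and 37.7 in TRF2KO, and the peak reached 1312 bp into the gene, over the start of the antisense gene C130013H08Rik. The Prmt6 summit lay at 755 bp in Control 2, but at −30, −47 and −55 bp in Control 1, TRF2KO 1 and TRF2KO 2. The Control 2 fold was thus read at a different point of the peak.

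Prmt8, a membrane-anchored enzyme known mainly from brain, lies on the minus strand at chr6:127689011-127769472 and differed from the others in position and height. No ATAC peak lay within 500 bp of its GENCODE start. RefSeq promoter windows numbered 2 for this gene, and the start of the nearer lies 313 bp further into the gene. The other RefSeq start was not compared with the peaks. The peaks nearest the GENCODE start were 255 to 452 bp wide, in the first part of the gene, with summits from 1416 to 1452 bp in an intron. Their folds were 9.90 in Control 1, 6.12 in Control 2, 5.26 in TRF2KO 1 and 4.31 in TRF2KO 2. The pileups behind them were 42 (95% Poisson interval 30.3 to 56.8), 33 (22.7 to 46.3), 22 (13.8 to 33.3) and 18 fragments (10.7 to 28.4). Both Control folds were above both TRF2KO folds, while the counting intervals overlapped between the genotypes for every pair except Control 1 and TRF2KO 2. These intervals are for pileups not scaled to background, which was 4.56 in Control 2 and 3.35 to 3.41 in the other libraries. Their overlap is not a test of the difference in fold. A peak near the 3′ end of the gene, overlapping an exon at about 79.5 kb, was present in all 4 libraries with folds of 6.44 and 6.84 in Control and 6.18 and 7.72 in TRF2KO.

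Among the type II enzymes, Prmt5, which methylates spliceosomal Sm proteins and histones, lies on the minus strand at chr14:54507187-54517525. Its folds were 191 and 167 in Control and 191 and 182 in TRF2KO, with the summit at −43 bp in every library. Prmt9, which methylates the splicing factor SF3B2, lies on the plus strand at chr8:77549397-77581338. It had folds of 52.7 and 46.3 in Control and 61.8 and 51.1 in TRF2KO, and the groups overlapped.

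Prmt7, the type III enzyme, lies on the plus strand at chr8:106210936-106252794. The start peak had folds of 101 and 89.6 in Control and 108 and 101 in TRF2KO. Slc7a6os starts in the same peak on the other strand, and the peak is common to both genes. Intron peaks were found at 15.9 kb and 20.8 kb. The first had folds of 5.98 and 5.04 in Control and 7.09 and 6.36 in TRF2KO. At the second, folds of 8.05 and 7.02 in Control stood against 3.89 in TRF2KO 1 and no MACS peak in TRF2KO 2. GoPeaks, another caller whose lists were deposited, had a region at the second site in both Control libraries and in neither TRF2KO library. SEACR, a further caller with deposited lists, had no region at the second site in any ATAC library. This site was pointed out after its values were seen.

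Over the 9 loci the ATAC peaks merged into 26 regions. Of these, 12 (46.2%) were present in all 4 libraries, against 50.2% of 122720 regions in the genome, and 9 (34.6%) in a single library, against 30.4%. One region was in both libraries of one genotype and neither of the other, against 5.61% of regions in the genome. That region lay in a Prmt3 intron at 30.1 kb, with folds of 2.99 and 4.86 in Control. GoPeaks had a region at this site in 1 Control library and in 1 TRF2KO library.

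**Figure D3:**
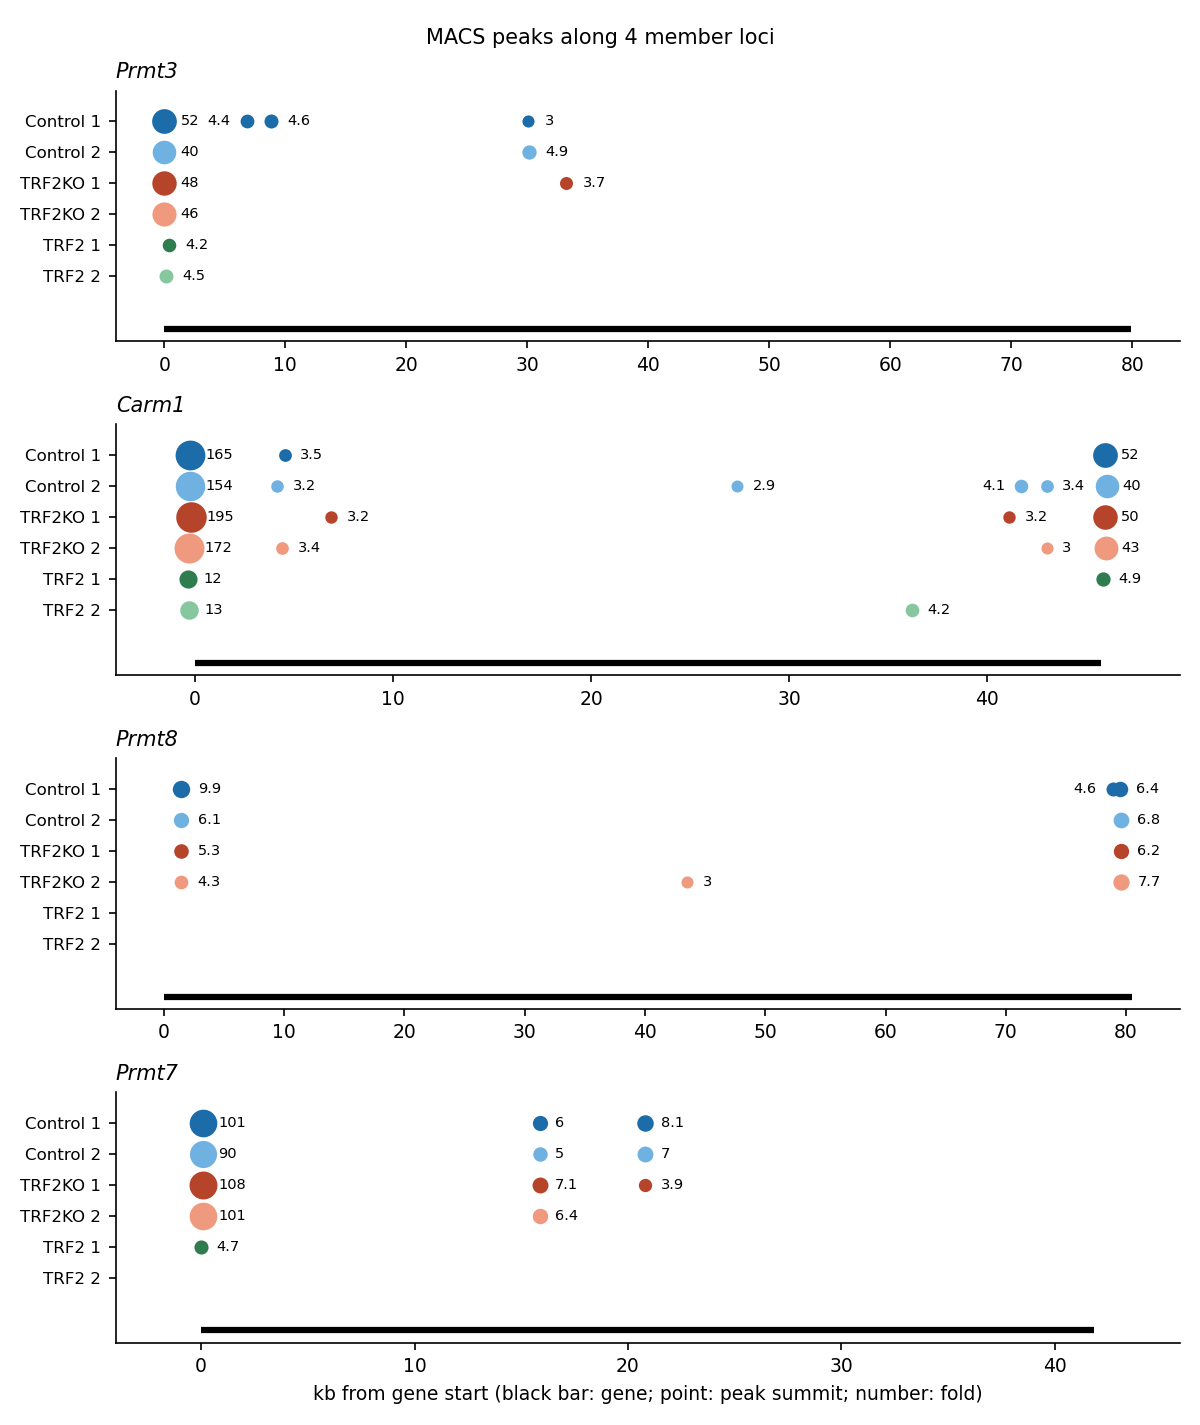
Summits of MACS peaks along Prmt3, Carm1, Prmt8 and Prmt7, in kb from the start, with 1 row per ATAC and TRF2 library. Point size follows the log2 fold and the number beside each point is the fold, from 195 at the Carm1 start to about 3 at single-library peaks, and the 20.8 kb peak of Prmt7 is seen in Control 1, Control 2 and TRF2KO 1.

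Accessibility was then compared between the genotypes. The test was a limma fit of median-centred log2 folds over the 14118 coding genes with a start peak in all 4 libraries, with Benjamini-Hochberg adjustment. The fit called 298 genes (2.11%) at an adjusted p under 0.05, of which 84 (0.595%) were higher in TRF2KO and 214 (1.52%) lower. None of the 9 members was called, and 1, Prmt8, had an unadjusted p under 0.05, against 2261 (16.0%) of the tested genes. The median difference of the members was 0.04 on the log2 scale, against 0.01 over all tested genes.

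For Prmt8 the log2 difference, TRF2KO minus Control, was −0.81 (SE 0.228; 95% confidence interval −1.29 to −0.32; limma adjusted p = 0.0877). This is a ratio of 0.572 in the fold, with an interval from 0.408 to 0.801. The limma adjusted p depended on the processing. It was 0.218 with quantile normalization, 0.153 without the mean trend, 0.133 without centring and 0.0514 with a replicate block. The size of the difference depended on single libraries. It was −0.54 without Control replicate 1, whose fold of 9.90 was the highest of the 4, and −1.07 without Control replicate 2. Without TRF2KO replicate 1 the difference was −0.89, and without TRF2KO replicate 2 it was −0.72.

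The other members had log2 differences near 0. Among the type I genes they were 0.11 for Prmt1 (SE 0.070; adjusted p = 0.454, limma), 0.11 for Prmt2 (SE 0.114; adjusted p = 0.672), 0.10 for Carm1 (SE 0.064; adjusted p = 0.470), −0.06 for Prmt3 (SE 0.097; adjusted p = 0.820) and 0.01 for Prmt6 (SE 0.099; adjusted p = 0.988). Prmt5 was at −0.04 (SE 0.063; adjusted p = 0.834, limma), Prmt9 at 0.09 (SE 0.088; adjusted p = 0.669) and Prmt7 at 0.04 (SE 0.066; adjusted p = 0.818). Over these 8 genes, the confidence intervals of the centred fit reached from a ratio of 0.832, at Prmt3, to one of 1.28, at Prmt2. Larger changes in either direction fell outside the intervals of that fit alone. Without centring, which moved every difference up by about 0.10, Prmt3 and Prmt5 were on the positive side. The SEs of these genes were then larger, from 0.153 at Prmt7 to 0.168 at Prmt2, so the intervals were wider.

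Ranks do not depend on scaling, although they do depend on the length of each list. In 3 members, Prmt3, Prmt5 and Prmt8, both TRF2KO ranks were below both Control ranks, and in none were both above. Among all tested genes 29.5% had lower and 9.22% higher ranks without overlap. Prmt3 had ranks of 89.5 and 89.2 in Control and 88.3 and 88.3 in TRF2KO. Prmt5 ranks were 99.84 and 99.88 in Control and 99.73 and 99.72 in TRF2KO. Prmt8 dropped further, from 53.5 and 46.5 to 30.9 and 24.6, a difference in mean rank of −22.2 points. With 2 libraries a group, the exact permutation test (two-sided) cannot go below p = 0.33, the value it gave for each of these genes.

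**Figure D4:**
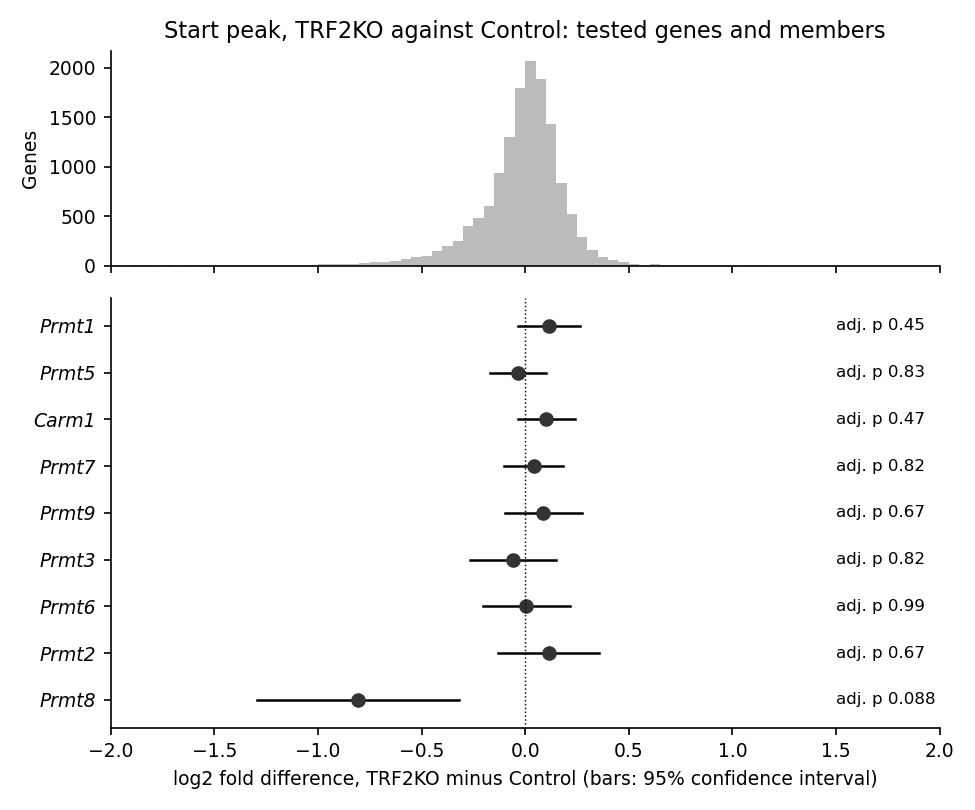
Log2 difference of the start peak, TRF2KO minus Control. The upper panel counts the 14118 tested genes, of which 9 lie beyond the axis, and the lower panel gives each member with its 95% confidence interval and limma adjusted p. The interval of Prmt8 lies below 0 and those of the other 8 members cover 0.

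TRF2 peaks were found at the starts of 6 of 9 members in both TRF2 libraries, namely Prmt1, Prmt2, Prmt3, Carm1, Prmt5 and Prmt9. Over all coding genes the share was 24.1%, and over those with an ATAC start peak in all 4 libraries 37.3%. Prmt7 had a TRF2 peak in TRF2 1 alone, as 15.9% of coding genes had in 1 library, and Prmt6 and Prmt8 had none, like 59.9% of coding genes. IgG gave no peak at any of the 9 loci, against 0.15% of coding genes with an IgG start peak, and its list was far shorter than those of TRF2.

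Carm1 carried the highest TRF2 peaks of the members, with folds of 11.7 and 12.8 and ranks of 98.4 and 98.6 in the respective lists. Both peaks began at the same base, −725 bp, and had summits at −331 and −323 bp, upstream of the ATAC summits at −220 to −296 bp. At Prmt1 the folds were 7.004 and 9.57, with ranks of 78.5 and 93.4 and summits at 38 and 16 bp. Prmt9 had folds of 7.21 and 7.52, with ranks of 81.2 and 80.6. These 3 genes had a TRF2 peak at a −log10 q of at least 5 in both libraries, as did 13.2% of coding genes.

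At Prmt5 and Prmt2 the ranks of the TRF2 peak lay far apart between the libraries. Prmt5 had folds of 5.04 and 9.24, with ranks of 36.6 and 92.2. Prmt2 had 4.73 and 8.44, with ranks of 27.0 and 88.0. At Prmt3 both folds were low and close, at 4.17 and 4.54, and the peaks overlapped by 107 bp, with summits at 412 bp in TRF2 1 and 108 bp in TRF2 2. Prmt7 in TRF2 1 had a fold of 4.70 at −3 bp, over the start it shares with Slc7a6os. Carm1 had additional single-library peaks at 36.2 kb (fold 4.22, TRF2 2) and at its 3′ end near Yipf2 (fold 4.85, TRF2 1).

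Genes with higher ATAC peaks more often had TRF2 peaks across the genome. TRF2 was present in both libraries at 88.7% of genes whose Control start rank was above 99 and at 1.47% of those up to 20, and the CUT&Tag and ATAC cells were from different injury states. Each member was therefore read beside genes within 2 rank points of it. The share with TRF2 in both libraries was 85.2% for Prmt1, 85.1% for Prmt5 and 84.5% for Carm1. It was 38.1% of 1907 genes for Prmt9, 34.3% of 1759 for Prmt3 and 19.8% of 963 for Prmt2. For Prmt7, with TRF2 in 1 library, it was 71.1%. Of genes ranked like Prmt6, 43.5% had no TRF2 peak, and of those ranked like Prmt8, 81.9%.

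**Figure D5:**
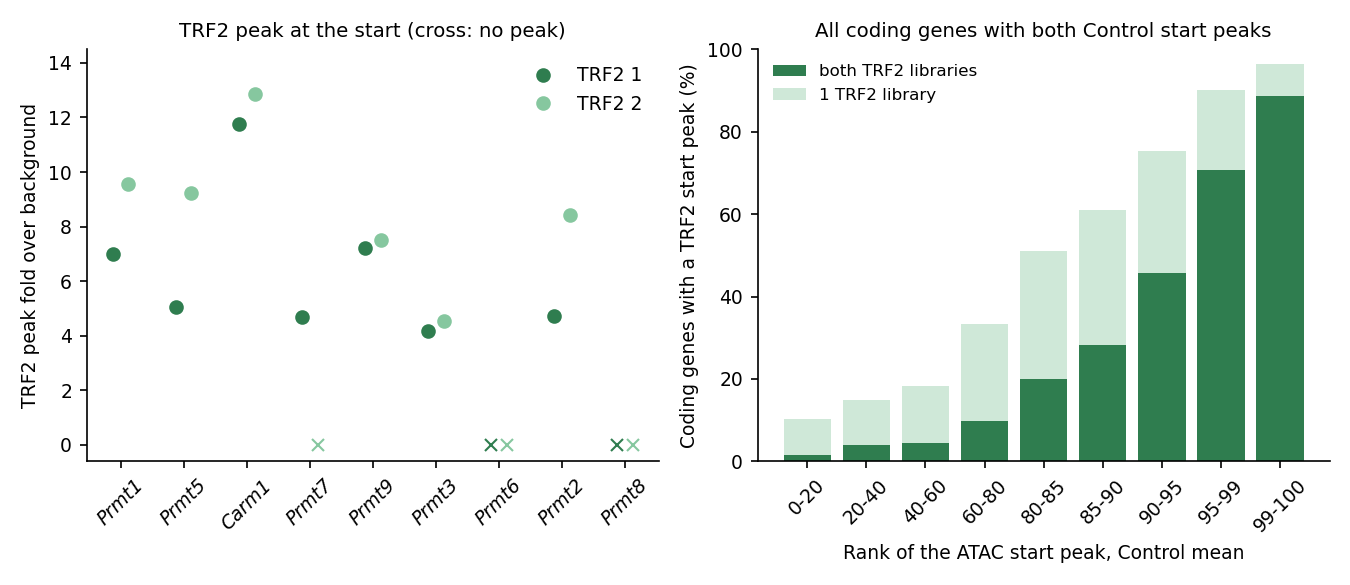
Left, fold of the TRF2 peak at each member start in both TRF2 libraries, with a cross where no peak was listed. Right, share of coding genes with a TRF2 start peak in both libraries or in 1 library, in bins of the mean Control rank of the ATAC start peak, rising from 1.47% to 88.7% for both libraries. Carm1 stands highest at 11.7 and 12.8.

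TRF2 is known to bind DNA able to fold into G-quadruplexes (G4), so the letters under its peaks were searched on both strands for 4 stretches of 3 or more G separated by 1 to 7 other bases. Of the 6 genes with TRF2 in both libraries, 1, Prmt3, held such a motif within a TRF2 peak, in TRF2 2. How many of all TRF2 start peaks hold a motif was not counted, so this number stands without a background. The 2 copies at Prmt3 are shown with the G runs in capitals, the first on the minus strand of the chromosome and the second on the plus strand.
Prmt3, chr7:49778329-49778354: GGGtcacgtGGGcgtaGGGGGcGGGG
Prmt3, chr7:49778521-49778541: GGGcggcGGGGcgcGGGtGGG

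The first copy spans the start, from −17 to 8 bp, and the second lies at 175 to 195 bp, and both are outside the TRF2 1 peak. Within 500 bp of the start the motif was present at 3 members, with 2 copies at Prmt3, 2 at Carm1 and 4 at Prmt8. The Carm1 copies do not lie within its TRF2 peaks, and Prmt8 had no TRF2 peak. Of the 6 members with TRF2 in both libraries, 2 held a copy in these windows. In the same windows 43.2% of all coding genes held a copy, with 57.6% of genes having TRF2 in both libraries and 34.4% of genes with none. Median G + C was 60.2% in the former and 50.2% in the latter. Carm1, at 76.7% G + C, was above 99.6% of genes. The vertebrate telomere repeat TTAGGG, to which TRF2 binds at chromosome ends, was in none of the 8 promoter windows, and in 10.6% of all windows.

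Of 26 other genes of arginine methylation (cofactors of the enzymes, substrates and readers, S-adenosylmethionine supply and enzymes acting on methylarginine or arginine), 24 had an ATAC start peak in all 4 libraries. The limma fit called 0 of them higher and 0 lower, against 2.11% called among all tested genes. At an unadjusted p under 0.05 there were 3, against 16.0% of all tested genes, and their median log2 difference was 0.02. The exceptions, Snd1 and Padi4, had no peak within 3 kb of the GENCODE gene start in any library. Peaks at other transcript starts of these genes are not reported here. TRF2 was present at the starts of 15 of the 26 in both libraries, against 24.1% of coding genes and 37.3% of those with an ATAC start peak in all 4 libraries. The median ATAC ranks of the list were high, at 93.4 and 93.6 in Control. Of all genes with Control ranks from 90 to 95, 45.7% had TRF2 in both libraries, and from 95 to 99, 70.7%. Jmjd6 and Mettl23 had the same folds in every library and were each counted. The highest TRF2 folds were at Mat2a, which makes S-adenosylmethionine, with 7.78 and 10.7, at Smndc1, whose Tudor domain reads methylarginine, with 7.51 and 10.1, and at Tdrd3, another Tudor reader, with 7.40 and 9.01. All 3 were below Carm1 in both libraries.

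The largest ATAC differences in this list were all negative and did not pass the test. Padi2, which converts arginine to citrulline, had folds of 6.90 and 8.64 in Control and 5.03 and 5.90 in TRF2KO (log2 difference −0.60, SE 0.227, limma adjusted p = 0.202). Ddah2 had 111 and 87.5 in Control and 95.4 and 85.3 in TRF2KO (−0.23, SE 0.076, adjusted p = 0.147, limma). Clns1a, the Prmt5 cofactor known as pICln, was at −0.19 (SE 0.111, limma adjusted p = 0.440). Like Prmt8, Padi2 had low peaks in every library.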

How the data were processed

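MACS peak lists (narrowPeak) were deposited for 4 ATAC-seq and 3 CUT&Tag libraries on mm10. Per the labels and the study's methods, the authors trimmed CUT&Tag reads with cutadapt 4.4, aligned with Bowtie2, removed duplicates with Picard 3.1.1, dropped reads that did not align uniquely and called peaks with MACS3 (3.0.0 for CUT&Tag, 3.0.2 for ATAC) in each library separately. The Bowtie2 version is 2.4.4 for CUT&Tag and 2.5.4 for ATAC in the labels. The score column of the deposited lists was made by the authors' MACS run and was not used. The deposited fold is a ratio of pileup to background, and the deposited q-values are on the −log10 scale. Deposited SEACR and GoPeaks regions and consensus regions were used for presence only, and the SEACR signal values, whose scale the authors set per library, were not compared.

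A gene start window reached 3 kb to each side of the GENCODE M21 start, any overlap of at least 1 bp counted, and the peak with the highest fold was taken. Pileups were recovered from fold and p-value in the ATAC lists, where 100% of values came out whole within 0.05 fragments. Background was constant within an ATAC library, so counting intervals follow from the pileup. Log2 folds were median-centred and fitted with limma 3.58.1 (mean trend) in R 4.3.3. The script was checked on simulated data. Sequences came from GRCm38.p6 and RefSeq promoter windows, the latter for 8 members. Motifs were counted on both strands. Genes named were all 9 members, the targeted gene, genes sharing a member's peaks, and by fixed rule 6 others. Marker genes, Snd1, Padi4, Jmjd6 and Mettl23 were named after their values were seen. Members and gene lists were chosen with earlier results of these data known. No protein sequences were used here.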

Additional observations from a re-analysis of the deposited data

How the results depend on the processing

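The number of genes called between genotypes was 298, and it was 157 with quantile normalization, 107 without the mean trend, 103 with a 500 bp window and between 94 and 460 when single libraries were left out (94 without Control 1, 173 without Control 2, 417 without TRF2KO 1, 460 without TRF2KO 2). A library left alone in its group was assumed to vary like the other group. Members called were 0 in each of these settings except that Prmt8 was called without TRF2KO 1, so leaving out libraries gave 0 to 1. Prmt8 kept its negative sign in all 13 fits, from −1.07 to −0.54, and could not be fitted with the 500 bp window, where it has no peak. Without centring Prmt3 was 0.0386 and Prmt5 0.0622. With single libraries left out Prmt3 ran from −0.165 to 0.0462 and Prmt6 from −0.00896 to 0.0191, and Prmt6 was −0.00015 with the 500 bp window. TRF2 was at 3 members in both libraries at a −log10 q of at least 5, in place of 6. SEACR gave 11 and GoPeaks 15 ATAC regions in the loci, in place of 26, and the 500 bp window gave a G4 motif at 2 of the 6 TRF2 genes in place of 1. The cause of these shifts was not tested, apart from those in which the setting itself leaves fewer peaks or genes. Of the 54 alternatives to counts, 43 stayed within 1.5 times of the value given.

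Replicate numbers are shared by the ATAC groups. The deviations of same-numbered libraries from their group means had a correlation of −0.041, and those of crossed numbers 0.041. With 2 libraries a group these deviations mirror each other, so the value cannot show whether same-numbered libraries were prepared together. A shared batch was not tested. With a replicate block, 354 genes were called, 0 of them members, and Prmt8 had a limma adjusted p of 0.0514.

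The Prmt8 values rest on few fragments, 18 to 42 at the ATAC summit. The absence of a TRF2 peak at Prmt6 and Prmt8 in both libraries, and at Prmt7 in TRF2 2, was read from lists of called peaks alone.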
